A study of Homo sapiens with 6 samples.

Results

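The general polyadenylation machinery is described here through 10 genes, CPSF1, CPSF4, FIP1L1, CSTF1, CSTF3, NUDT21, CPSF6, CPSF7, PCF11 and PABPN1, taken by gene symbol from a table of 56794 named genes. The RNA came from HEK293, a line of human embryonic kidney origin. All 6 libraries were made from cells that carry luciferase, 3 from the parental line (genotype Parent) and 3 from cells that the labels give as CRISPR-deleted for CASP8AP2 (genotype CASP8AP2 Mutant). Whether the mutant cells were 1 clone or several, and whether replicates were separate cultures, is not given in the labels, so the p-values measure only the spread between these samples, which may be technical. The values are group means of a length-scaled abundance (abundance below), so levels of different genes can be set side by side, and no value or error of a single library stands behind them here. Of the 111 transcripts of the 10 genes, 95 were given a p-value by the authors' deposited table and 54 reached an abundance of 1 in a group. All 10 genes passed that minimum as sums over their transcripts.

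Most messenger RNAs get their 3′ end by cleavage of the nascent transcript followed by addition of a poly(A) tail. CPSF recognises the AAUAAA signal and holds the endonuclease, CstF binds downstream U-rich or GU-rich sequence, CFIm binds UGUA sequence upstream and steers the choice between alternative sites, and CFIIm links cleavage to the end of transcription. PABPN1 coats the new tail in the nucleus and sets its length. CASP8AP2, also called FLASH, acts in the other 3′ end pathway, that of replication-dependent histone messages, which borrows some CPSF and CstF subunits. The comparison addresses whether RNA of the general machinery differed between cells labelled as deleted for CASP8AP2 and their parent.

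The ends of 7 transcripts on which the results turn are printed as their last 30 bases, 5′ to 3′, with the poly(A) signal in capitals, since the transcripts of CPSF6, CSTF3 and PCF11 differ in where they end. They are read from GENCODE release 29 on build hg38.
NUDT21-201 (chr16:56429133-56429162, minus strand): tcatttcAATAAAaaatatttgaaagagaa
CPSF6-201 (proximal end, chr12:69269910-69269939, plus strand): tgtagtgttgtAATAAActgtttaatgggg
CPSF6-202 (distal end, chr12:69274329-69274358, plus strand): tattgaaAATAAAacaaacttttgataaga
CPSF7-205 (chr11:61402731-61402760, minus strand): aaattgtgtAATAAActtgatgacgctgtc
CSTF3-201 (chr11:33084584-33084613, minus strand): tcctttaaaaAATAAAaggattcagaaaca
CPSF4-201 (chr7:99457342-99457371, plus strand): ttttatgaaatggATTAAAgcttgtttttt
PCF11-207 (chr11:83158850-83158879, plus strand): aaaatttgtgAATAAAacatataaaatatg
Searched on the transcript's own strand, the last 50 bases held AATAAA in 6 of the 10 most abundant transcripts of these genes and ATTAAA in 2, and no window held both. The same windows held AATAAA in 46.3% and ATTAAA in 13.9% of 62866 coding transcripts with a complete annotated end, whatever their abundance here. The sets are unlike, since the 10 were picked by abundance and CSTF1-206 among them is annotated for nonsense-mediated decay. A match describes the annotation and does not measure where these cells cut.

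Alternative coding stretches separate the main transcripts of CPSF4 and of CPSF6. The stretch that CPSF4-201 has and CPSF4-204 lacks (75 bases, chr7:99453966-99454040, plus strand) and the exon that CPSF6-201 has and CPSF6-202 lacks (111 bases, chr12:69258035-69258145, plus strand) are shown in capitals, with 12 bases of the transcript on either side in lower case.
CPSF4-201: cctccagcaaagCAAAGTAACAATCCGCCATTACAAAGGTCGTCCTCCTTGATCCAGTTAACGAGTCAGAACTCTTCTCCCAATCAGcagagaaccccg
CPSF6-201: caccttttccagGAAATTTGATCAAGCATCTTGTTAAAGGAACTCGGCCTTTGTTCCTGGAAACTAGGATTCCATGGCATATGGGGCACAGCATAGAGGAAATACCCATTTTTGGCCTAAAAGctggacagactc

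Some facts of the whole series touch all values. Depth, estimated from the size of 1 read, was 57500000, 15000000 and 13300000 transcript reads for the mutant libraries and 15300000, 11600000 and 9190000 for the parental ones, and the deepest mutant library could not be left out of a group mean. CASP8AP2 itself had an abundance of 15.7 in mutant and 15.9 in parental cells, with no transcript called. The labels do not say which bases were deleted, so this level does not check the labels. Of 7 marker genes of HEK293 cells, VIM, KRT8, KRT18 and PAX2 were above 1 in both groups. The neurofilament genes among them differed in opposite directions, with NEFL at 434 in mutant and 35.7 in parental cells, NEFM at 0.069 and 8.63, and INA at 0 and 6.11. The 7 marker genes of leukocytes, fibroblasts, hepatocytes and endothelium summed to 6.24 in the mutant and 2.57 in the parental group, with CD3E at 0 in both and COL1A1 (5.82 and 2.17) making up most of either sum.

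The polyadenylation factors lay in different directions. Their gene sums ran from NUDT21, at 0.622 times the parental level in the mutant group, to CPSF4, at 1.47 times. On the scale of log2 of (mutant + 1) over (parental + 1), used for every log2 ratio below, 6 genes lay higher and 4 lower, and their median was 0.04, where 49.4% of all 14856 genes with an abundance of at least 1 were higher and their median was -0.01. In bulk RNA a lower level per cell and fewer cells with the RNA cannot be told apart. Summed over the 10 genes, abundance was 405 in the mutant and 376 in the parental group.

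**Figure D1:**
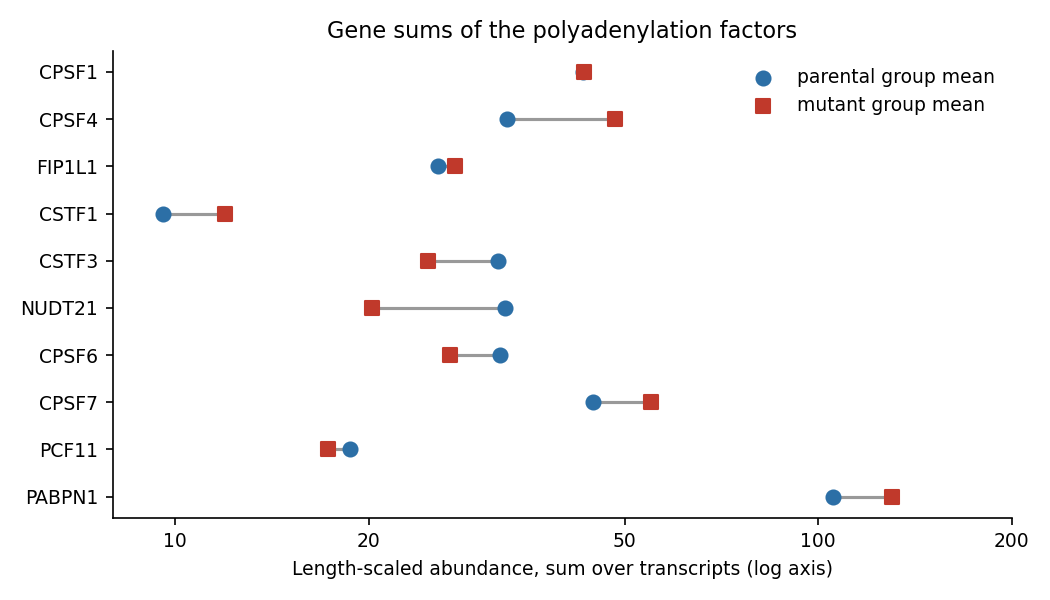
Abundance of the 10 polyadenylation factors as sums over transcripts, on a log axis, with circles for the parental and squares for the mutant group mean; no single libraries are shown. NUDT21 lies furthest to the lower side (20.3 against 32.6) and CPSF4 furthest to the higher side (48.3 against 32.8), while the marks of CPSF1 coincide (43.3 against 43.1).

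By level, PABPN1 was the most abundant of the 10 in both groups and CSTF1 the least. In the parental group CPSF4 (32.8), NUDT21 (32.6), CPSF6 (32.0) and CSTF3 (31.8) were almost level, and these are group means whose spread is not known. In the mutant group the same genes lay apart, at 48.3, 20.3, 26.8 and 24.7. They were picked for like levels in the parental group, so a wider spread in the mutant group shows no change by itself.

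A single transcript of the 95 passed the adjusted threshold of 0.05 in the authors' deposited table, PABPN1-205, against 0.0221% of all 140552 tested transcripts. At an unadjusted p under 0.05 there were 4 higher transcripts and 3 lower ones among the 95, where 3.30% of all tested transcripts were higher and 2.48% lower. Among the 54 with an abundance of at least 1 there were 3 higher and 2 lower, against 5.78% and 6.01% of 37102 such transcripts, so the shares of the members were near those of the table as a whole. Read by the most abundant transcript, 1 gene was higher at that p (CPSF4) and 1 lower (NUDT21), where 5.17% of all genes were higher and 8.63% lower. Apart from PABPN1-205, no transcript of these genes can be called different after adjustment.

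**Figure D2:**
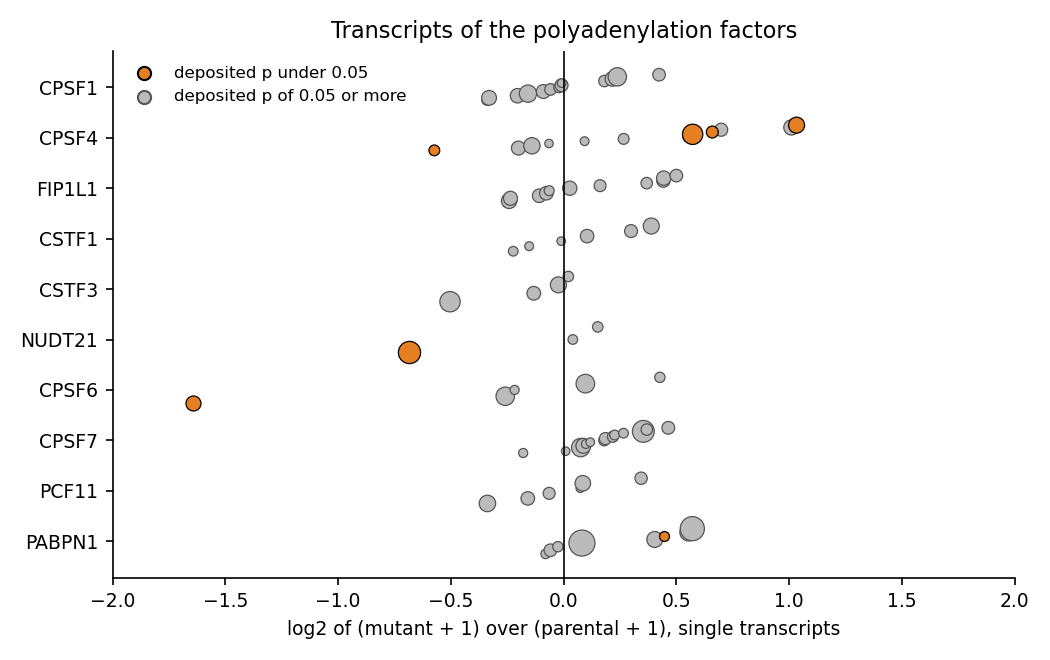
The log2 ratio of mutant over parental for 83 tested transcripts that reach an abundance of 0.05 in a group, by gene; point area grows with abundance and orange marks a deposited p under 0.05. Orange points lie on the higher side for CPSF4 (3 of 4) and PABPN1 and on the lower side for NUDT21 and CPSF6.

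CPSF, the factor that reads the poly(A) signal, gave its largest difference in CPSF4. CPSF4 encodes the 30-kDa zinc finger subunit that contacts the AAUAAA signal together with WDR33. Its sum over 13 transcripts (chromosome 7, 99438922 to 99457371, plus strand) was 48.3 in the mutant and 32.8 in the parental group, a log2 ratio of 0.55 that stood at the 90.4th percentile of all genes. The most abundant transcript, CPSF4-201, which encodes 269 residues and holds the stretch printed above, had 21.1 against 13.9, for which the authors' deposited table gives a p of 0.0427, adjusted 0.703. CPSF4-204, which encodes 244 residues without that stretch, had 6.75 against 7.54 (p 0.800 in the authors' deposited table), so the 2 main coding transcripts lay on opposite sides. The difference between them was not tested.

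The retained-intron transcripts of CPSF4 accounted for more of the difference than its coding ones. All 4 of them were higher. CPSF4-210 had 6.88 against 2.85 (p = 0.0442 in the authors' deposited table). CPSF4-213 had 1.32 against 0.472 (p = 0.0260 in the authors' deposited table). CPSF4-209 (5.21 against 2.09) and CPSF4-212 (2.30 against 1.03) had p-values of 0.113 and 0.102 in the authors' deposited table, and none of the 4 passed after adjustment. Together they made up 32.5% of the gene in the mutant and 19.7% in the parental group, at 15.7 against 6.44, while coding transcripts summed to 32.5 against 26.3. Retained-intron sums were higher in the mutant group across the table as well, with a median log2 ratio of 0.17 over 3910 genes, against -0.03 for coding sums of 11754 genes. The log2 ratio of 1.17 for CPSF4 stood at the 98.9th percentile of those 3910. Retained introns cannot be told apart from unspliced RNA or from a gene on the other strand when strand is not used, and whether it was used is not given. On the minus strand, ATP5MF, an ATP synthase subunit gene whose locus reaches over the 3′ part of CPSF4, had 135 against 250, the opposite direction. PTCD1, which spans CPSF4 on that strand, had 3.76 against 3.72. The minor coding transcript CPSF4-208 was lower, at 0.124 against 0.673 (p 0.0274 in the authors' deposited table).

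CPSF1 and FIP1L1, the other CPSF genes here, lay close to their parental levels. CPSF1 encodes the large scaffold subunit that holds WDR33 and CPSF4, and its sum was 43.3 against 43.1, a log2 ratio of 0.01 that became -0.22 once the trend with GC content was taken off. Its main full-length transcript CPSF1-212, of 1443 residues, had 13.2 against 11.1 (p 0.493 in the authors' deposited table). CPSF1-213, also of 1443 residues, lay the other way at 3.06 against 3.32 (p 0.918 in the authors' deposited table). Over 60% of the gene lay in 9 retained-intron transcripts, 61.5% in the mutant and 65.0% in the parental group, the other way from CPSF4, and the difference between these genes was not tested. FIP1L1 binds U-rich sequence near the signal and recruits the poly(A) polymerase. Its sum was 27.2 against 25.6, spread over many forms, and its most abundant transcript FIP1L1-202 (594 residues) lay the other way, at 4.63 against 5.66. FIP1L1-203, nearly as long at 588 residues, had 2.54 against 1.61, and the shorter form FIP1L1-201 (520 residues) had 3.83 against 2.55. No transcript of CPSF1 or FIP1L1 had a p under 0.05, and the smallest in the authors' deposited table were 0.171 and 0.134.

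CstF, the cleavage stimulation factor, showed opposite directions in its 2 genes. CSTF3 encodes the 77-kDa scaffold of the complex. Its full-length transcript CSTF3-201 (717 residues, ending at the AATAAA printed above) had 14.9 against 21.5, for which the authors' deposited table gives a p of 0.0717. CSTF3 is known to make short messages that end at poly(A) sites inside an early intron and leave out nearly all of the coding region. Such transcripts, CSTF3-202 (44 residues) and CSTF3-203 (103 residues), stood at 6.68 against 6.81 and 2.62 against 2.97. Their windows of 50 bases held neither AATAAA nor ATTAAA. The scarce longer form CSTF3-206 (749 residues) had 0.538 against 0.516. With CSTF3-201 lower and the short forms nearly level, the short forms made up 37.6% of the gene in the mutant and 30.8% in the parental group. No test was available for this difference in share. The gene sum was 24.7 against 31.8, a log2 ratio of -0.35. On the opposite strand over its 3′ part, the long non-coding RNA LINC00294 had 11.6 against 6.84 and TCP11L1 6.06 against 3.69, both higher. LINC00294 ends at 33079454, outside CSTF3-201, which ends at 33084584. The locus of TCP11L1 reaches to 33105943 and so lies over the 3′ part of CSTF3-201.

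CSTF1 encodes the 50-kDa subunit, which helps CstF dimerise. It was the scarcest of the 10 at 11.95 against 9.57, a log2 ratio of 0.29. Most of it lay in CSTF1-206, a transcript annotated for nonsense-mediated decay (57.2% and 52.2% of the gene), at 6.84 against 4.99. The full-length CSTF1-201, of 431 residues, had 2.78 against 2.51. The p-values of the 8 transcripts lay between 0.139 and 0.942 in the authors' deposited table.

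**Figure D3:**
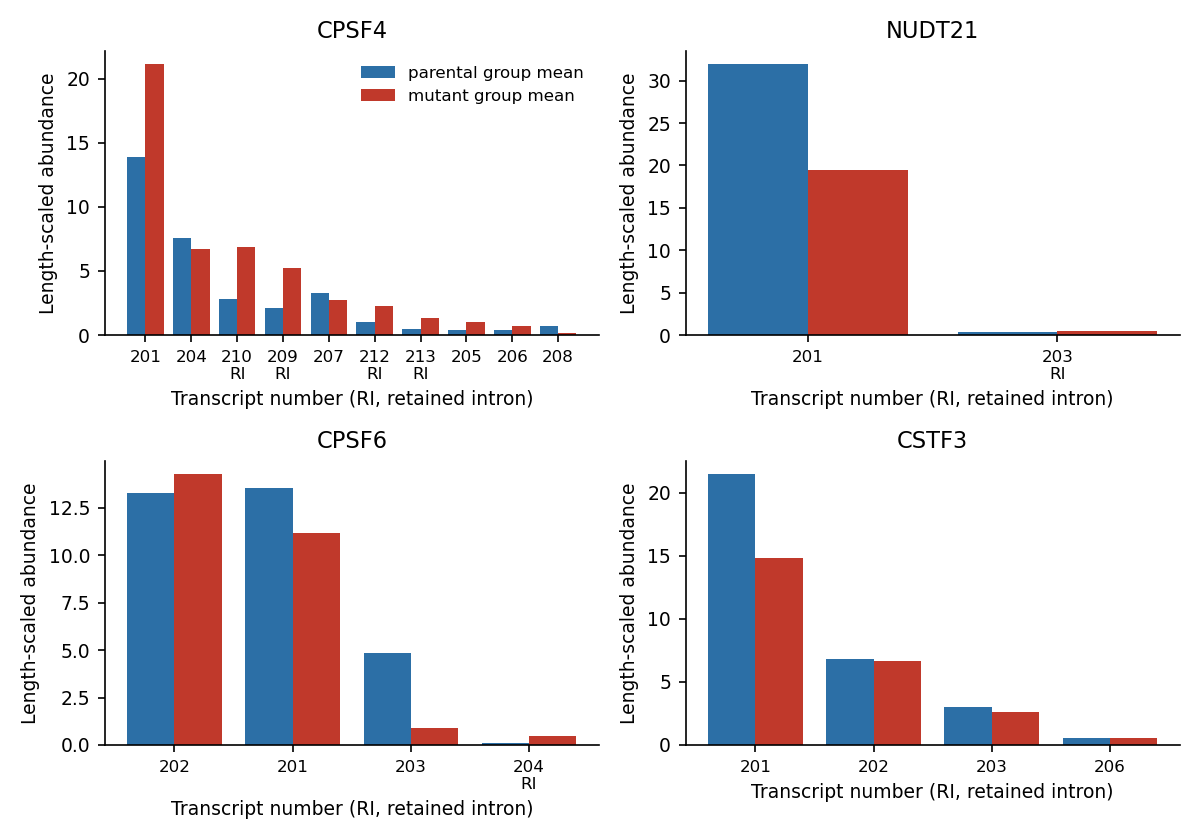
Group means of the transcripts of CPSF4, NUDT21, CPSF6 and CSTF3 that reach an abundance of 0.4 in a group, parental left and mutant right in each pair; RI marks retained introns and no error is known. In CPSF4 the 4 retained-intron transcripts are all higher in the mutant group, in NUDT21 almost everything is the coding transcript 201, in CPSF6 the transcript 203 is lower, and in CSTF3 the full-length transcript 201 is lower beside short forms 202 and 203 that are nearly level.

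The 3 genes of CFIm, which binds UGUA and promotes the use of distal poly(A) sites, lay in different directions. NUDT21 encodes the 25-kDa subunit that reads UGUA as a dimer, and CPSF6 and CPSF7 encode the alternative 68-kDa and 59-kDa partners. NUDT21 had the largest difference of the 10 genes, 20.3 against 32.6 (chromosome 16, 56429133 to 56452199, minus strand). Its log2 ratio of -0.66 stood at the 5.87th percentile of all genes and was -0.51 once the GC trend was taken off. Nearly all of it was the coding transcript NUDT21-201, of 227 residues, at 19.4 against 31.9, for which the authors' deposited table gives a p of 0.0209, adjusted 0.692. At the group means that transcript equals at least 1418 reads in a library of either group. OGFOD1, on the other strand, had 19.8 against 33.3, and its annotated start at 56451490 lies outside NUDT21-201, which begins at 56451375.

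CPSF6 was slightly lower as a sum, at 26.8 against 32.0, a log2 ratio of -0.25 that turned to 0.10 when only its most abundant transcript, CPSF6-202, was read. The gap came from CPSF6-203, a coding form of 478 residues with a pair of shortened exons, at 0.879 against 4.87. The authors' deposited table gives it a p of 0.0210, adjusted 0.693. Without it the coding sum was 25.5 against 26.9. The transcripts of the 2 well-known protein forms differed less. CPSF6-201, of 588 residues and with the exon printed above, had 11.2 against 13.6 (p 0.537 in the authors' deposited table), and CPSF6-202, of 551 residues and without it, had 14.3 against 13.3 (p 0.873 there). Since CPSF6-202 alone ends at the distal signal and CPSF6-201 and CPSF6-203 at the proximal one, the distal end held 54.2% of the coding abundance in the mutant and 41.9% in the parental group. That end lies 4419 bases further downstream. Part of this difference in share came from CPSF6-203, which shares the end of CPSF6-201 and differs from it in splicing. Without CPSF6-203, CPSF6-202 held 14.3 of 25.5 in the mutant and 13.3 of 26.9 in the parental group. Transcript estimates assign reads to whole annotated forms, so the share of an end was not measured directly.

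CPSF7 lay higher, at 55.0 against 44.7, a log2 ratio of 0.29. Its 2 main forms, CPSF7-205 (462 residues) and CPSF7-202 (471 residues), had 29.6 against 22.9 and 13.6 against 12.9, with p-values of 0.229 and 0.348 in the authors' deposited table. Of its 19 tested transcripts 17 were higher and 2 lower, and they share most exons, so they are not separate evidence. Among coding transcripts, CPSF7 was 1.88 times as abundant as CPSF6 in the mutant and 1.31 times in the parental group. CPSF6 and CPSF7 together were 3.89 times NUDT21 in the mutant group against 2.29 times in the parental one, with nearly the same sum (75.8 and 73.2). These ratios rest on group means and have no error.

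PCF11, the scaffold of CFIIm that binds the tail of RNA polymerase II and takes part in termination, lay close to its parental level. Its sum was 17.3 against 18.7, a log2 ratio of -0.10 that was 0.01 once the GC trend was taken off. The full-length PCF11-201 (1555 residues) had 6.06 against 7.93, and the authors' deposited table gives it a p of 0.177. PCF11 is known to limit its own expression through premature polyadenylation in the first intron. PCF11-207, an unspliced annotated transcript at the start of the gene (83157160 to 83158879 on chromosome 11) that ends at the AATAAA printed above, had 5.83 against 5.44 (p 0.704 in the authors' deposited table). It made up 33.7% of the gene in the mutant and 29.1% in the parental group, beside 35.0% and 42.4% for the full-length form, shares for which no test was available. PCF11-207 has the annotation type TEC, for forms that still await experimental proof. Its reads cannot be told apart from unspliced RNA of the same stretch.

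PABPN1, the nuclear poly(A)-binding protein, was the most abundant factor at 130 against 106, a log2 ratio of 0.30. Its main transcript PABPN1-201 (306 residues) was nearly level, at 64.1 against 60.5 (p 0.706 in the authors' deposited table). More of the difference lay in PABPN1-202, of 296 residues, whose last exon runs through the last intron, at 46.1 against 30.7 (p 0.107 in the authors' deposited table). PABPN1-207 (178 residues) had 10.7 against 6.98. Neither of these passed a threshold. The one called transcript, PABPN1-205, is a short fragment of 406 bases with an incomplete annotated start, and rose to 0.361 from 1.8e-05. The authors' deposited table gives it a p of 1.1e-06, adjusted 0.0141. It made up 0.277% of the gene in the mutant group, the equivalent of 2.41 to 10.4 reads per mutant library and of none in a parental one. The call ended at an adjusted p under 0.01, and the transcript was not among those adjusted again at an abundance of at least 1. The readthrough gene BCL2L2-PABPN1, which shares exons with PABPN1, had 6.56 against 4.16, so reads could be split between them and the level of either is uncertain.

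GC content moved with the differences. Across all genes the smoothed median log2 ratio was -0.15 at the GC content of NUDT21 (37.4%) and CPSF6 (37.1%) and 0.22 at that of CPSF1 (62.3%). With this trend taken off, CPSF4 was at 0.46, CSTF1 at 0.37, CPSF7 at 0.29, PABPN1 at 0.24, FIP1L1 at 0.13, CPSF6 at -0.10, CSTF3 at -0.20 and NUDT21 at -0.51, so those 8 kept their direction. The difference of CPSF6 was less than before, -0.25 on the same scale, and that of FIP1L1 more, 0.08 before. The genes that turned were CPSF1, at -0.22, and PCF11, at 0.01. After removal 6 genes were again higher and 4 lower, with a median of 0.07.

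**Figure D4:**
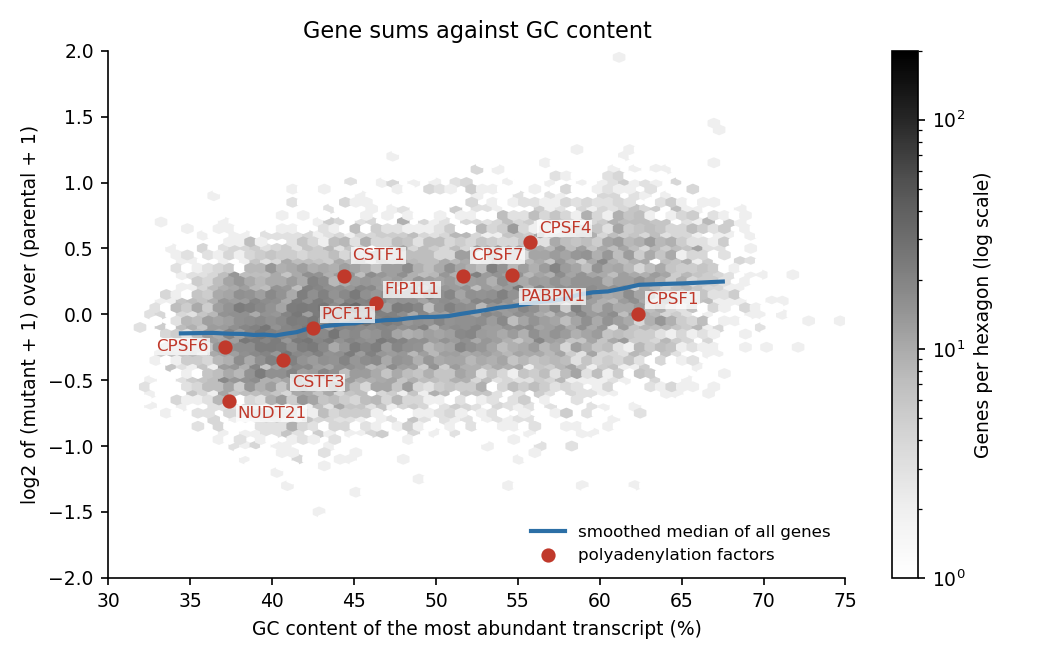
The log2 ratio of each gene sum against the GC content of its most abundant transcript, with grey hexagons for 14723 genes (64 of them outside the plotted range), the smoothed median as a line and the 10 polyadenylation factors as red points. NUDT21 (-0.66) lies well below the line and CPSF4 (0.55) well above it, and CPSF1 (0.01) lies below it.

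The rest of the cleavage and polyadenylation complex lay mostly lower. These 13 genes encode its other subunits and close partners, such as the endonuclease, the CstF RNA-binding subunits, the poly(A) polymerases and phosphatases. Of the 13, 3 lay higher and 10 lower, where 49.4% of all genes were higher. Some of the 10 were nearly level, the smallest difference being a log2 ratio of -0.01. The median log2 ratio of the 13 was -0.14, with sums of 344 against 382, and was -0.22 once the GC trend was taken off. By the p of the most abundant transcript, 0 were higher and 1 lower at under 0.05 in the authors' deposited table, beside the shares of all genes given above. That gene was CPSF3, the endonuclease, at 20.7 against 28.9, and CPSF3-201 has a p of 0.0161, adjusted 0.646, in the authors' deposited table.

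Transcription termination factors and Integrator subunits had medians close to 0. Of 11 transcription termination factors 6 were higher and 5 lower, with a median of 0.01 (0.07 once the GC trend was taken off), and none had a p under 0.05. The largest differences there were in XRN2 and PPP1R10. XRN2, the exonuclease that chases the polymerase after cleavage, had 11.9 against 23.1 (p 0.0580 for XRN2-201 in the authors' deposited table). PPP1R10, a phosphatase partner, had 9.76 against 14.0. Integrator, which cuts the 3′ ends of small nuclear RNAs, had 7 genes higher and 7 lower, with a median of 0.02 (0.06 once the GC trend was taken off). INTS14 had 23.2 against 27.8 and INTS9 had 6.97 against 8.70. Their most abundant transcripts, INTS14-201 and INTS9-211, had p-values of 0.0308 and 0.0419 in the authors' deposited table, both adjusted 0.703.

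The nuclear exosome and the adaptors that bring it to polyadenylated RNA, some of them through PABPN1, had 4 of 18 genes higher and 14 lower, with a median of -0.15 that was -0.09 once the GC trend was taken off. By gene sum, 49.4% of all genes were higher. With a p under 0.05 there were 0 higher and 4 lower of the 18, where 5.17% of all genes were higher and 8.63% lower. In all of these lists the levels are gene sums, while each p belongs to the most abundant transcript alone. EXOSC10, the nuclear exonuclease of the exosome, was nearly level as a sum, at 49.7 against 52.8. The p of 0.00200 in the authors' deposited table is for EXOSC10-202 and does not test that sum. EXOSC5, a core subunit, had 13.7 against 36.0, and the authors' deposited table gives EXOSC5-201 a p of 0.00840, adjusted 0.547. EXOSC3, a cap subunit, stood at 14.0 against 16.6 and RBM27, an adaptor, at 5.38 against 7.25. Their transcripts EXOSC3-201 and RBM27-201 had p-values of 0.00461 and 0.0488 in the authors' deposited table. None of them passed after adjustment.

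Genes that bind, shorten or add tails showed single differences rather than a common one. Of 14 deadenylase genes 5 were higher and 9 lower (median -0.09, or -0.05 once the GC trend was taken off). PAN2, which trims tails first, had 71.0 against 33.2, the largest difference on the higher side in all of these lists. The authors' deposited table gives PAN2-205 a p of 0.0287, adjusted 0.703. CNOT7 (18.1 against 22.4) and CNOT8 (20.4 against 28.7) encode catalytic subunits of CCR4-NOT. Their transcripts CNOT7-201 and CNOT8-201 had p-values of 0.00259 and 0.0112 in the authors' deposited table, adjusted 0.417 and 0.588. Of 7 cytoplasmic poly(A)-binding proteins and partners 4 were higher and 3 lower (median 0.10). PAIP1, a partner of PABPC1 in translation, had 40.9 against 48.4 (p 0.0126, adjusted 0.605, for PAIP1-201 in the authors' deposited table). Of 9 non-canonical poly(A) and poly(U) polymerases 6 were higher and 3 lower, with a median of 0.14. GC content was matched for only 2 of these 9, so a correction for it is void for this list. TUT1, the U6 uridylyltransferase, stood at 12.1 against 7.01 (p 0.0273, adjusted 0.703, for TUT1-202 in the authors' deposited table). Over all 86 measured genes of these 7 lists 35 were higher and 51 lower, with a median of -0.09 that was -0.04 over the 79 with a GC content once the trend was taken off. Higher genes made up 40.7% of the 86, against 49.4% of all genes. A p under 0.05 was reached by 2 higher genes and 10 lower ones, where 5.17% of all genes were higher and 8.63% lower. By its most abundant transcript, none of these genes passed after adjustment.

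**Figure D5:**
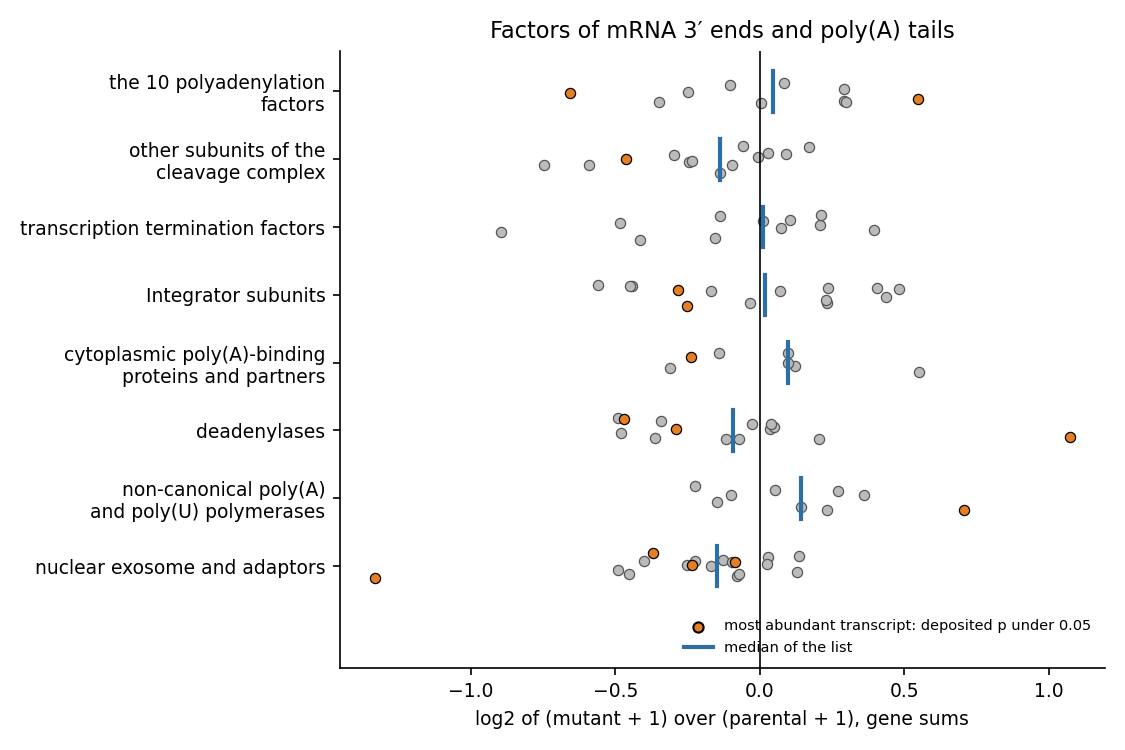
The log2 ratio of gene sums for the 10 polyadenylation factors and 7 further lists; blue bars are medians, points are genes, and orange marks a deposited p under 0.05 for the most abundant transcript. Medians lie between -0.15 and 0.14, and single genes such as PAN2 (1.07) and EXOSC5 (-1.33) lie furthest out.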

How the data were processed

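Whether and how messenger RNA was enriched is not given in the sources used here, nor is strand use. Per the labels' protocols, total RNA from HEK293 cells went into random-primed NEBNext Ultra libraries. Per the submitters' processing notes, bcl2fastq, STAR and Partek were used with build hg38, and versions, annotation and filters were not given. The score called LSMean, deposited by the authors per the file headers, is a group mean of a length-scaled abundance plus 1. The deposited signal called total counts equalled 3 times the sum of both group means. The deposited p-value, adjusted p-value, ratio and fold change are held as scores. Benjamini-Hochberg adjustment over 140552 transcripts gave the deposited adjusted p-value again. These p-values are the authors' own, made for the comparison of mutant with parental.

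With Python 3.11.15 and pandas 2.3.3, 1 was taken off each group mean, transcripts were summed per gene, and log2 ratios were taken after 1 was added. Transcripts without a p-value had an abundance of 0 to within rounding. Names were matched to GENCODE release 29 (99.1% found). The trend with GC content was the median in 40 bins of genes, averaged over 5. The size of 1 read came from the repeated steps of abundance times length in transcripts seen in 1 library, and gave the depths and read equivalents. These steps were tested on simulated data. No test of single libraries was possible on group means, and lists are described by counts and medians. Named transcripts held at least 10% of their gene or a p under 0.05, and other named genes had the smallest p-values of their list under 0.05, at most 4, or else the 2 largest differences. CPSF4-212, PABPN1-207 and the named genes of the opposite strand were picked after their values were seen. Members, lists and rules were chosen with earlier results of these data known. No protein sequence was used here.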

Additional observations from a re-analysis of the deposited data

How the results depend on the processing

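The median log2 ratio of the 10 genes, 0.04, was 0.089 with the most abundant transcript of each gene, 0.15 with coding transcripts only, 0.071 with the GC trend taken off, 0.050 with the median of all genes taken off, and 0.13 with retained introns left out, an alternative added after the data were seen; it did not change by as much as 0.01 with 0.1 added. In each of these 6 alternatives 6 genes were higher. Direction turned for CPSF1 (-0.22) and PCF11 (0.0068) with the GC trend taken off, and for CPSF6 (0.10) and FIP1L1 (-0.24) with the most abundant transcript, and for none of the other 6 genes. The median of all genes, -0.01, was -0.028 at an abundance of at least 5 and 0.0057 without a filter. The count of 1 called transcript became 0 at an adjusted p under 0.01. It was also 0 when transcripts with an abundance of at least 1 were adjusted again, a setting that leaves PABPN1-205 out beforehand. With the p-value of the factor Type the count was 1, but that p-value equalled the other deposited one for each of the 95 tested transcripts. It is therefore not a separate test. No paired analysis was possible because only group means were analysed, and leaving out single libraries could not be run for the same reason. Depth limits scarce transcripts such as PABPN1-205, and the unequal depth of the mutant libraries could not be balanced.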

Other observations

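Annotated 3′ ends were also read across the table, a description chosen after values had been seen. In 1899 last exons of 1879 genes, coding transcripts that share the start of the last exon end at least 200 bases apart, and both the distal and the proximal forms reached an abundance of 1 in a group. The distal forms held a median of 56.1% of the abundance in the mutant and 58.9% in the parental group. The share was higher in the mutant group in 749 last exons and lower in 1150, with a median difference of -1.25 percentage points (quartiles -5.59 and 2.05). It was higher by over 10 points in 113 and lower by over 10 points in 227. CPSF6, at 54.2% against 41.9%, was among the 113. The other last exons of the polyadenylation factors that met these conditions were in CPSF7 (97.0% against 97.1%), FIP1L1 (18.9% against 22.4%) and PABPN1 (96.3% against 94.2% for the exon that is extended in PABPN1-202, and 85.3% against 89.7% for the usual last exon). The shares are estimates for whole transcripts, no test of them was available, and the part of GC content and depth in them was not tested.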
